A study of Mus musculus with 16 samples.

Results

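The lysosome set comprised 36 mouse genes named by function: 15 for the vacuolar proton pump (V-ATPase), 4 for lysosomal membrane proteins, 14 for lysosomal hydrolases and an activator, and 3 for transcription factors of the Tfeb family. They were found among 20659 named genes on the array through the RefSeq accession of each probe, and all 36 were among the 15049 genes tested. Transcripts were measured in cultured primary hepatocytes of male C57Bl/J mice, kept in Williams Medium E, on 16 two-colour arrays. Each array held RNA of treated cells in 1 dye and RNA of untreated cells in the other: 8 arrays compared SQ1 (100 µM as labelled) with control and 8 compared pravastatin (30 µM) with control. Treatment began 48 h after plating and lasted 48 h, and 500 ng of total RNA entered each amplification. The age of the mice is not given in the sources used here. SQ1 is squalestatin 1, which inhibits squalene synthase, and pravastatin inhibits HMG-CoA reductase, an earlier enzyme of the same pathway. Squalestatins act at far lower doses than the labelled one, so the unit of that dose is uncertain. The doses of the drugs were not matched.

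The V-ATPase pumps protons into lysosomes and endosomes: the peripheral V1 sector splits ATP, and the membrane-embedded V0 sector carries the protons. The acid lumen is where cathepsins, glycosidases and lysosomal acid lipase work, and in hepatocytes these enzymes degrade endocytosed lipoproteins, autophagosome content and stored lipid. Tfeb, Tfe3 and Mitf are related basic helix-loop-helix factors that bind E-box motifs, among them the CLEAR element in promoters of many lysosomal genes. Their activity is set largely by movement of the protein between lysosome surface and nucleus, which transcript levels do not show.

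Because the set includes the factors and genes with known CLEAR elements, the promoters were searched for TCACGTGA, the core of that element, which reads the same on both strands and contains the shorter E-box CACGTG. Windows of 250 bases before to 50 bases after the annotated start were matched by symbol for 30 of the 36 genes, with 39 windows in all (RefSeq, GRCm38.p6). TCACGTGA was in 7 of the 39 windows (17.9%), against 0.974% of all 32851 windows, and CACGTG was in 30.8% against 7.15%. The full CLEAR palindrome, longer by 1 base at each end, was in 0 of the 39 windows and in 0.326% of all. The 7 genes with TCACGTGA were Ctsa, Ctsd, Mcoln1, Atp6v0d1, Atp6v1a, Atp6v0e and Gla. A match is a description of the letters only. The 250 bases before the start are shown for 4 of these genes, chosen to cover different calls, and for Lipa, which had the largest change in the set and no match. Capitals mark TCACGTGA. Ctsd lies at chr7:142387828-142388077 on the minus strand, Atp6v1a at chr16:44139260-44139509 on the minus strand and Mcoln1 at chr8:3500269-3500518 on the plus strand. Gla lies at chrX:134601006-134601255 and Lipa at chr19:34527475-34527724, both on the minus strand.
Ctsd: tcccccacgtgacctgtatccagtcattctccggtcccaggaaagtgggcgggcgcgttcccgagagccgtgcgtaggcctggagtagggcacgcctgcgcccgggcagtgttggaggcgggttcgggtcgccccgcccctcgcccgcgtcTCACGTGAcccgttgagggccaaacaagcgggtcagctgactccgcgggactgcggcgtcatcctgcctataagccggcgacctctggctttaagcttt
Atp6v1a: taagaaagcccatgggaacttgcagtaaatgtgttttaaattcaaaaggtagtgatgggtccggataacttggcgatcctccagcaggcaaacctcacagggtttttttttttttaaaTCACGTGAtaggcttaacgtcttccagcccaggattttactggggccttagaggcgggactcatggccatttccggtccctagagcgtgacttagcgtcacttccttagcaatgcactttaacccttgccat
Mcoln1: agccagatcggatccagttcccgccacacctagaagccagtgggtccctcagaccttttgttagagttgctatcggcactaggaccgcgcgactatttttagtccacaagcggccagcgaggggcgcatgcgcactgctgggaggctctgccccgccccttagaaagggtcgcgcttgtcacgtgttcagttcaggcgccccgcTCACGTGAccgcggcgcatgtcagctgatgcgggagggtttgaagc
Gla: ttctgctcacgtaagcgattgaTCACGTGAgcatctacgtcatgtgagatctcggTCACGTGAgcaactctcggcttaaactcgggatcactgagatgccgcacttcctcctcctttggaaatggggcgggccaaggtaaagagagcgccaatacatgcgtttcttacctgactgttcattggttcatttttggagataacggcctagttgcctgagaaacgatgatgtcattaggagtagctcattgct
Lipa: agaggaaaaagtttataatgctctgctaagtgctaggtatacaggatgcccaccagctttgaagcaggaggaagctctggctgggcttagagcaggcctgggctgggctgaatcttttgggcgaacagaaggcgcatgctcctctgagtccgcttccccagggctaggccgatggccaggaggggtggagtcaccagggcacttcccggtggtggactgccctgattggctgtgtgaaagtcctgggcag
With SQ1, 6 of the 7 genes were called higher, at log2 ratios from 0.11 to 0.42. Gla, which holds 2 copies, was not past the threshold (-0.13). In the whole set 24 of 36 genes were called higher with SQ1, and 15.8% of all genes were. The direction of Ctsa depends on the probe: a second probe read -0.3. With scan day as a random block Atp6v0d1, Mcoln1 and Ctsa were short of the threshold (limma adjusted p = 0.157, 0.0696 and 0.393). All SQ1 arrays were scanned on the same day, so this block cannot compare days within SQ1. With pravastatin the calls of the 7 genes were mixed: Ctsd and Mcoln1 were higher, Ctsa, Atp6v0d1 and Gla lower, and Atp6v1a and Atp6v0e not past the threshold. Whether the match bears on these changes was not tested.

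With SQ1, 24 of the 36 genes rose, 3 fell and 9 did not pass the threshold, an adjusted p of 0.05 in limma with Benjamini-Hochberg adjustment over all genes tested. Over all genes, 32.3% were called with SQ1, 15.8% higher and 16.5% lower. With pravastatin 15 genes rose, 12 fell and 9 did not pass, where 66.7% of all genes were called, 30.9% higher and 35.8% lower. With scan day as a block 14 rose with SQ1, where 14.9% of all genes were called and 44.3% of those calls were higher. With median centring of the arrays in place of loess 0 fell with SQ1 and 3 with pravastatin. Median centring called 13.8% of all genes with SQ1 and 47.7% with pravastatin. Changes were small: 0 of the called genes reached 1.5-fold with SQ1 (2.06% of all genes) and 2 did with pravastatin (11.3%), Lipa and Ctsh. Values are log2 ratios of treated over control with the dye effect removed, and errors after ± are standard errors (SE) of the fit, n = 8 arrays a drug. Slides 1 and 2 held the SQ1 arrays and slides 3 and 4 the pravastatin arrays. Slide 3 was scanned on another day than the rest, so scan day as a block cannot compare days within SQ1. Where slide or scan day as a random block ended a call, this is given beside it. All 36 probes were well above background in every channel. The names of the control samples recur in both drugs' arrays, so the comparisons may share control RNA. No correlation over genes between the changes with SQ1 and with pravastatin is given.

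The V-ATPase rose broadly with SQ1 and unevenly with pravastatin. With SQ1, 13 of 15 genes rose and 0 fell, where 15.8% of all genes rose and 16.5% fell. Their median log2 ratio with SQ1 was 0.21 (SD 0.04 over array medians), against -0.0023 over all genes. With pravastatin 7 rose and 3 fell, where 30.9% of all genes rose and 35.8% fell. Their median with pravastatin was 0.095 (SD 0.074), against -0.012 over all genes. All 5 V0 genes rose with SQ1, and 6 of 8 V1 genes did. The median was above 0 with both drugs under every alternative run, and median centring moved it to 0.34 with SQ1 and 0.23 with pravastatin. With the ratio of the Agilent software it was 0.2 with SQ1 and 0.18 with pravastatin, so that the drugs lay close together.

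Atp6v0a1, the V0 subunit whose isoforms direct the pump to its compartment, had SQ1 ratios of 0.33 at lowest, 0.42 at the median and 0.58 at highest. Its pravastatin ratios ran from 0.081 through 0.25 to 0.36. Every array lay above 0, and the highest pravastatin arrays overlapped the lowest SQ1 arrays. The fitted change was 0.42 ± 0.034 with SQ1 (1.34-fold, limma adjusted p = 1.66e-07) and 0.24 ± 0.034 with pravastatin (adjusted p = 1.05e-05). Atp6v0b, a subunit of the proteolipid ring, rose by 0.24 and 0.19. Atp6v0c, the main proteolipid of the ring, rose by 0.17 with SQ1 and stood at 0.014 with pravastatin. Atp6v0e, a small V0 subunit, rose by 0.16 with SQ1 and stood at -0.025 with pravastatin. For Atp6v0c and Atp6v0e every SQ1 array lay above every pravastatin array.

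Atp6v0d1, which joins the V0 ring to the central stalk, changed in opposite directions. Its SQ1 arrays ran from 0.061 through 0.25 to 0.38, and its pravastatin arrays from -0.37 through -0.2 to 0.066. The lowest SQ1 array just reached into the pravastatin range. The change was 0.23 ± 0.049 with SQ1 (limma adjusted p = 0.00215) and -0.17 ± 0.049 with pravastatin (adjusted p = 0.00601). The fall was not called after median centring (-0.019) or with the ratio of the Agilent software (-0.074), and the rise was not called with scan day as a block (adjusted p = 0.157).

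Atp6v1a, the catalytic subunit that binds ATP, rose evenly with SQ1, on arrays that ran from 0.25 through 0.3 to 0.36. The pravastatin arrays ran from -0.13 through 0.062 to 0.21, all below the SQ1 arrays. The change was 0.3 ± 0.033 with SQ1 (limma adjusted p = 5.55e-06) and 0.069 ± 0.033 with pravastatin, which was not past the threshold (adjusted p = 0.079). Without pravastatin replicate 1 or 5, with the Agilent ratio (0.16) or with the mean of its probes (0.099), the pravastatin value was past it.

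Among other V1 subunits, Atp6v1g1 of the peripheral stalk rose by 0.21 and 0.25, and Atp6v1c1, which links that stalk to the V0 sector, rose by 0.11 and 0.21. The non-catalytic Atp6v1b2 rose by 0.17 and 0.16, and the central-stalk subunit Atp6v1d by 0.21 and 0.11. These 4 genes had the same direction with both drugs. Atp6v1f fell with pravastatin by 0.14, with a value of -0.052 for SQ1 that was not past the threshold. Atp6v1h, a regulator of ATP hydrolysis, was not called with either drug (0.087 and 0.095), but without pravastatin replicate 1 its pravastatin value was 0.14 (limma adjusted p = 0.0337). With slide as a block the SQ1 calls of Atp6v1b2 and Atp6v1c1 and the pravastatin call of Atp6v1d were lost. The Atp6v1b2 call was also lost without SQ1 replicate 8, and the Atp6v1d call without pravastatin replicate 3, 4, 6 or 7. With scan day as a block the SQ1 calls of Atp6v1b2, Atp6v1c1 and Atp6v1d and the pravastatin call of Atp6v1d were lost. The SQ1 call of Atp6v1c1 was also lost after median centring, and the fall of Atp6v1f with pravastatin became 0.048 after median centring.

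Atp6v1e1, of the peripheral stalk, had SQ1 arrays from 0.023 through 0.09 to 0.19 and pravastatin arrays from -0.28 through -0.14 to -0.009. The drugs did not overlap, and each array lay on its drug's side of 0. The change was 0.088 ± 0.031 with SQ1 (limma adjusted p = 0.0411) and -0.15 ± 0.031 with pravastatin (adjusted p = 4.73e-04). The SQ1 call was lost on leaving out any 1 of SQ1 replicates 2 to 8, after median centring (adjusted p = 0.162), and with slide (adjusted p = 0.162) or scan day (0.045, adjusted p = 0.573) as a block, and the pravastatin value was 0.0087 after median centring.

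Atp6ap2, the accessory protein also known as the prorenin receptor, had SQ1 arrays from 0.15 through 0.29 to 0.47. Its pravastatin arrays ran from -0.16 through 0.071 to 0.22, a range that overlapped that of SQ1. The change was 0.29 ± 0.043 with SQ1 (limma adjusted p = 9.79e-05) and 0.025 ± 0.043 with pravastatin, which was not called. Atp6ap1, the other accessory protein, rose by 0.23 and 0.15, and the pravastatin call was lost with slide or scan day as a block (adjusted p = 0.0823 and 0.0675).

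**Figure D1:**
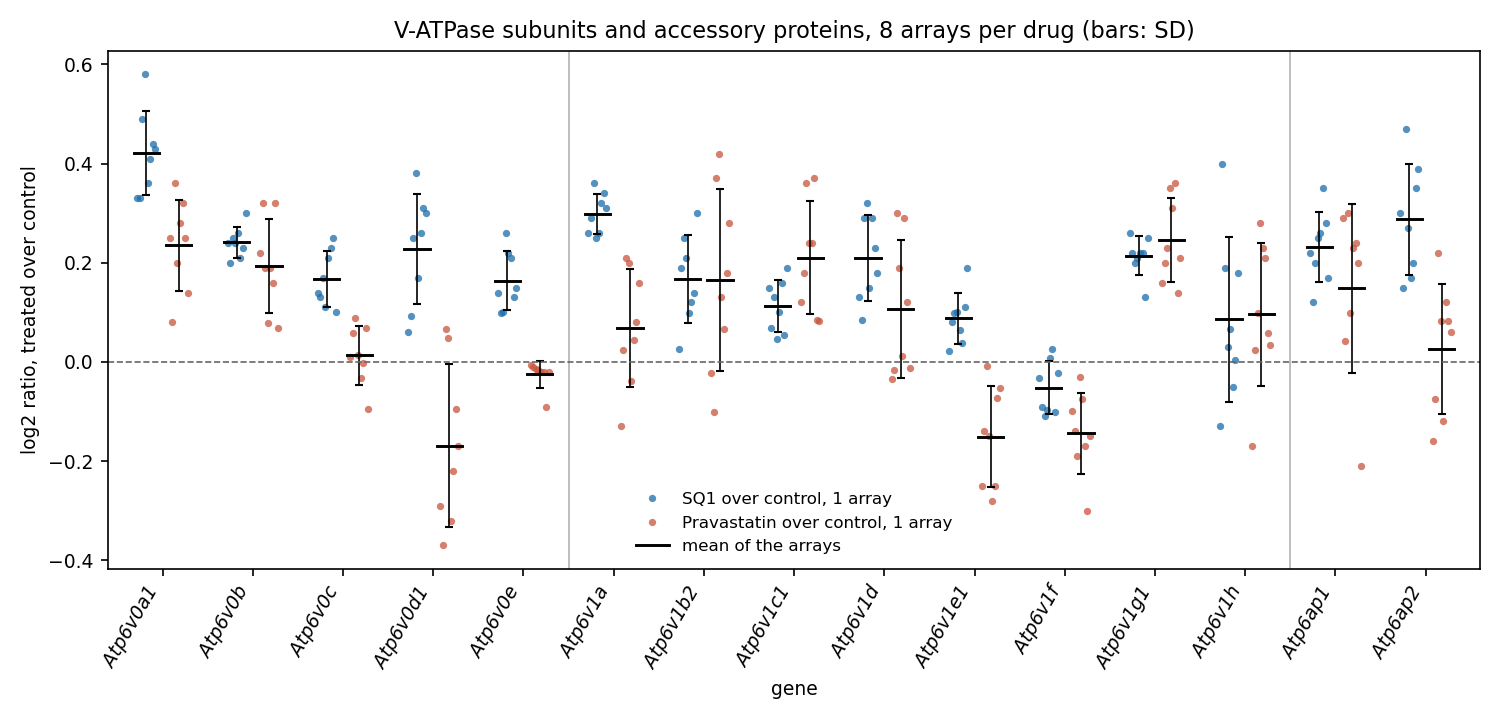
Log2 ratio of treated over control (vertical axis) for the 15 V-ATPase genes (horizontal axis; V0 sector, V1 sector and accessory proteins, separated by grey lines). Each point is 1 of 8 arrays of SQ1 (blue) or pravastatin (red), black lines are means and bars SDs; Atp6v0c, Atp6v0e, Atp6v1a and Atp6v1e1 have every SQ1 array above every pravastatin array, a difference not called after median centring.

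Among the lysosomal membrane proteins 3 of 4 rose and 0 fell with SQ1, where 15.8% of all genes rose and 16.5% fell. Their pravastatin counts were 2 higher and 2 lower, where 30.9% of all genes were higher and 35.8% lower. The difference between the drugs was called for Lamp1 and Lamp2, and not for Scarb2 and Mcoln1. Median centring ended both calls of a difference. Lamp1 and Lamp2 are the abundant glycoproteins that line the membrane, and Lamp2 also serves in chaperone-mediated autophagy. Lamp1 had SQ1 arrays from -0.058 through 0.079 to 0.27 and pravastatin arrays from -0.48 through -0.32 to -0.049. All 8 pravastatin arrays lay below 0, and the drugs overlapped slightly. Lamp1 fell with pravastatin by 0.27 ± 0.051 (limma adjusted p = 1.51e-04) and stood at 0.09 ± 0.051 with SQ1 (adjusted p = 0.195). After median centring the pravastatin value was -0.03.

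Lamp2 had SQ1 arrays from 0.091 through 0.26 to 0.35 and pravastatin arrays from -0.3 through -0.17 to 0.051, with no overlap. It rose by 0.25 ± 0.043 with SQ1 (limma adjusted p = 3.4e-04) and changed by -0.14 ± 0.043 with pravastatin (adjusted p = 0.00896). The pravastatin call was lost with slide (adjusted p = 0.0553) or scan day (0.0526) as a block, and the value was 0.059 after median centring. A probe for another Lamp2 transcript read 0.099 with SQ1 and -0.51 with pravastatin.

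Scarb2, an abundant membrane glycoprotein of lysosomes, had SQ1 arrays from 0.028 through 0.24 to 0.44 and pravastatin arrays from 0.049 through 0.22 to 0.31. The drugs overlapped throughout and every array lay above 0. The rise was 0.24 ± 0.041 with SQ1 (limma adjusted p = 2.85e-04) and 0.2 ± 0.041 with pravastatin (adjusted p = 4.75e-04). Mcoln1, the calcium channel of the lysosome, rose by 0.15 and 0.16, and its SQ1 call was lost after median centring (adjusted p = 0.0573) and with scan day as a block (0.0696).

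The 14 hydrolase genes rose with SQ1 more often than they fell, and with pravastatin their counts lay near the shares of all genes (30.9% higher and 35.8% lower). With SQ1 8 rose and 1 fell, where 15.8% of all genes rose and 16.5% fell. The hydrolase median with SQ1 was 0.13 (SD 0.036 over array medians). With pravastatin 4 rose and 6 fell, at a median of -0.029 (SD 0.086) that became 0.17 after median centring. Ctsd and Neu1 rose with both drugs, and Lipa and Ctsh gave the set's largest falls, with pravastatin.

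Ctsd, the aspartic protease that activates other cathepsins, rose by 0.42 with SQ1 and 0.39 with pravastatin, above 0 on all 16 arrays. A second Ctsd probe read 0.39 and 0.3. Ctsz, a carboxypeptidase, rose by 0.24 with SQ1 and stood at 0.021 with pravastatin. Ctsb and Ctsl, broad cysteine proteases, were not called with either drug: Ctsb stood at -0.092 and -0.079, and Ctsl at -0.01 and 0.13. Ctsl was called with pravastatin without replicate 1 (0.18) or 5 (0.17), and after median centring (0.37, limma adjusted p = 0.0151). Both genes differed between the slides of each drug, as described further on.

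Ctsh, an aminopeptidase of the cathepsin family, had SQ1 arrays from -0.42 through -0.2 to -0.04 and pravastatin arrays from -1.05 through -0.81 to -0.56. All 16 arrays lay below 0, and every pravastatin array lay below every SQ1 array. The fall was 0.81 ± 0.06 with pravastatin (1.75-fold, limma adjusted p = 5.49e-09), and the change with SQ1 was -0.21 ± 0.06 (adjusted p = 0.015). The SQ1 call was lost after median centring (-0.071), without a dye column (adjusted p = 0.0515) and without SQ1 replicates 2 and 5 (adjusted p = 0.0932), whose deposited values followed the scanner ratio least.

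Ctsa, which protects neuraminidase and beta-galactosidase in a complex, had SQ1 arrays from 0.033 through 0.11 to 0.25 and pravastatin arrays from -0.39 through -0.18 to -0.038. The drugs did not overlap. The change was 0.11 ± 0.037 with SQ1 (limma adjusted p = 0.0298) and -0.22 ± 0.037 with pravastatin (adjusted p = 7.29e-05). A second, dimmer Ctsa probe read -0.3 and -0.25, and the mean of both probes with SQ1 was -0.094, so that the direction with SQ1 depends on the probe. The SQ1 call was also lost without any 1 of SQ1 replicates 1, 3, 6, 7 and 8, after median centring (adjusted p = 0.0822), without SQ1 replicates 2 and 5 (0.0514), and with slide (0.189) or scan day (0.393) as a block. The pravastatin value was -0.026 after median centring.

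Among glycosidases, Neu1, the sialidase of that complex, rose by 0.24 with SQ1 and 0.32 with pravastatin, and Glb1, its beta-galactosidase, by 0.14 and 0.12. Gusb, beta-glucuronidase, rose by 0.21 with SQ1 and stood at 0.08 with pravastatin, or 0.12 and called without pravastatin replicate 6. Gaa, the alpha-glucosidase that degrades glycogen, rose by 0.16 with pravastatin and stood at 0.047 with SQ1. The SQ1 call of Glb1 was lost after median centring (adjusted p = 0.0505) and that of Gusb with scan day as a block (adjusted p = 0.145).

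Hexa, the alpha chain of beta-hexosaminidase, had SQ1 arrays from 0.11 through 0.17 to 0.33 and pravastatin arrays from -0.38 through -0.23 to -0.036. Every SQ1 array lay above 0 and every pravastatin array below it. The change was 0.18 ± 0.036 with SQ1 (limma adjusted p = 0.00104) and -0.21 ± 0.036 with pravastatin (adjusted p = 7.89e-05). Median centring ended both calls (0.3 and -0.072), as scan day as a block did for SQ1 (adjusted p = 0.0819).

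Gla, the alpha-galactosidase that is deficient in Fabry disease, had SQ1 arrays from -0.35 through -0.2 to 0.19 and pravastatin arrays from -0.7 through -0.42 to -0.18. The SQ1 arrays fell on both sides of 0, and the drugs overlapped. Gla fell by 0.43 ± 0.063 with pravastatin (1.35-fold, limma adjusted p = 1.5e-05) and stood at -0.13 ± 0.063 with SQ1 (adjusted p = 0.118). Without SQ1 replicate 8 the SQ1 value was -0.18 (limma adjusted p = 0.0336). After median centring the pravastatin value was -0.21 and was not called.

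Psap, the precursor of the saposins that present sphingolipids to hydrolases, had SQ1 arrays from 0.021 through 0.14 to 0.58 and pravastatin arrays from -0.29 through -0.17 to -0.021. The drugs did not overlap, and the highest SQ1 value stood apart from the rest. The change was 0.18 ± 0.048 with SQ1 (limma adjusted p = 0.00868) and -0.16 ± 0.048 with pravastatin (adjusted p = 0.00791). Without SQ1 replicate 2 the SQ1 value was 0.12 and still called. With slide as a block neither was called (adjusted p = 0.108 and 0.0768), nor with scan day (0.13 and 0.0656), and the pravastatin value was 0.012 after median centring and -0.082 with the Agilent ratio.

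Lipa, lysosomal acid lipase, frees cholesterol and fatty acids from the esters of endocytosed lipoproteins. Its SQ1 arrays ran from -0.33 through -0.034 to 0.12 and its pravastatin arrays from -1.26 through -0.97 to -0.64. All pravastatin arrays lay below all SQ1 arrays. Lipa fell by 0.98 ± 0.065 with pravastatin (1.98-fold, limma adjusted p = 1.2e-09) and stood at -0.061 ± 0.065 with SQ1 (adjusted p = 0.504). The fall was called under each alternative run.

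Of the 3 Tfeb family genes, 0 rose and 2 fell with SQ1, and 2 rose and 1 fell with pravastatin. Over all genes 15.8% rose and 16.5% fell with SQ1, and 30.9% and 35.8% with pravastatin. The SQ1 falls, of Tfe3 and Mitf, were not called after median centring. Tfeb had SQ1 arrays from -0.095 through 0.0018 to 0.061 and pravastatin arrays from -0.22 through -0.11 to -0.027. All 8 pravastatin arrays lay below 0, and the drugs overlapped. Tfeb changed by -0.12 ± 0.027 with pravastatin (limma adjusted p = 6.62e-04) and stood at -0.0015 ± 0.027 with SQ1 (adjusted p = 0.976). Its probe was the dimmest of the set (mean log2 intensity 7.22), and the pravastatin value ran from -0.25 to -0.11 over the alternatives.

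Tfe3 had SQ1 arrays from -0.33 through -0.15 to 0.058 and pravastatin arrays from 0.1 through 0.2 to 0.23. Every SQ1 array lay below every pravastatin array. The change was -0.13 ± 0.038 with SQ1 (limma adjusted p = 0.0139) and 0.19 ± 0.038 with pravastatin (adjusted p = 2.79e-04). The SQ1 call was lost after median centring (-0.01), with slide or scan day as a block, with the mean of its probes, with SQ1 fitted by itself and without SQ1 replicates 2 and 5.

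Mitf had SQ1 arrays from -0.32 through -0.24 to -0.14 and pravastatin arrays from 0.089 through 0.3 to 0.47. Every SQ1 array lay below 0 and every pravastatin array above it. The change was -0.24 ± 0.036 with SQ1 (limma adjusted p = 1.01e-04) and 0.29 ± 0.036 with pravastatin (adjusted p = 2.76e-06). A second Mitf probe read -0.18 and 0.32. After median centring the SQ1 value was -0.12 and was not called (adjusted p = 0.389).

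**Figure D2:**
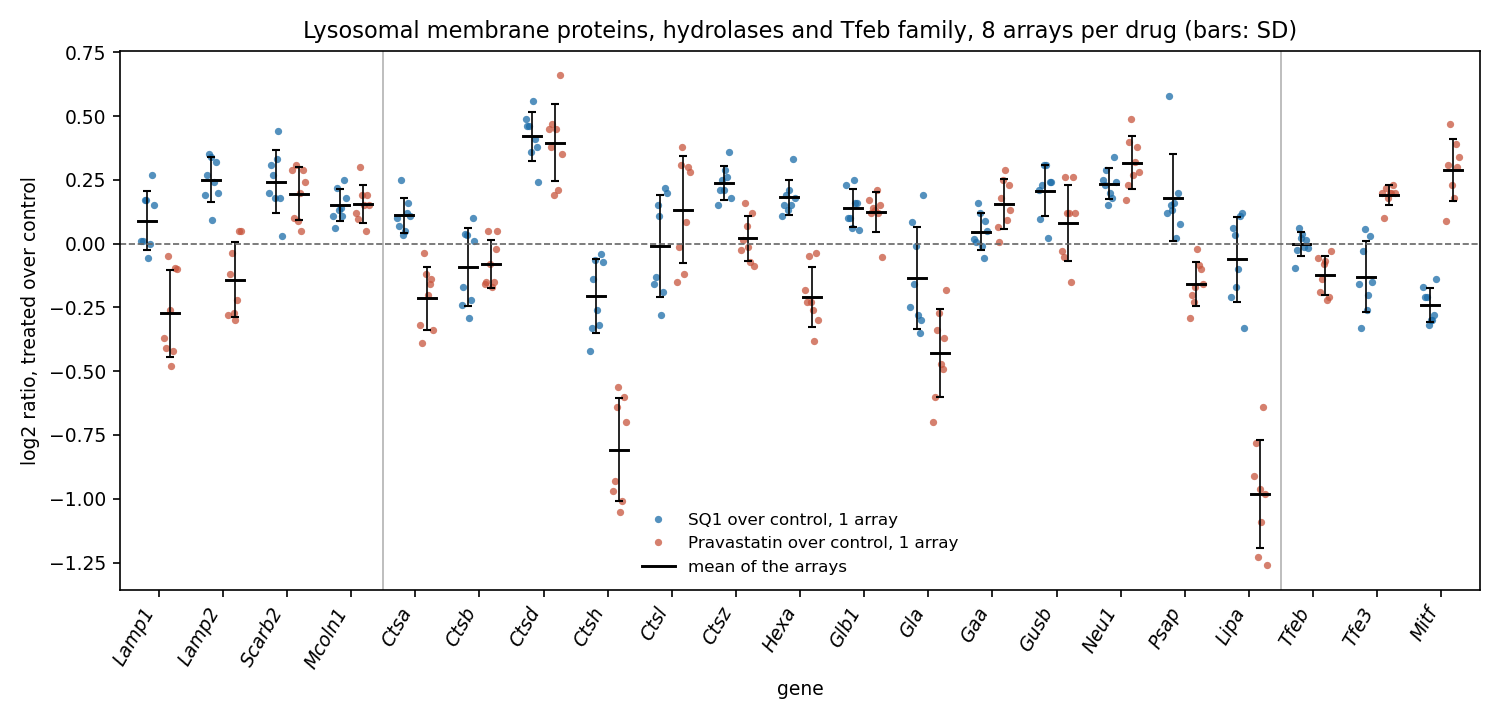
Log2 ratio of treated over control (vertical axis) for the 4 membrane proteins, 14 hydrolase genes and 3 Tfeb family genes (horizontal axis, separated by grey lines). Each point is 1 of 8 arrays of SQ1 (blue) or pravastatin (red), black lines are means and bars SDs; Lipa and Ctsh lie lowest with pravastatin, and the drugs take opposite sides of 0 for Mitf, whose SQ1 fall was not called after median centring.

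The direct test of SQ1 minus pravastatin found 17 of the 36 genes higher with SQ1, 2 lower and 17 not past the threshold. Over all genes 53.2% were called in this comparison, 29.3% higher and 23.9% lower. The largest differences were Lipa at 0.92 ± 0.091 (limma adjusted p = 4.52e-07) and Ctsh at 0.6 ± 0.085 (adjusted p = 2.03e-05) on one side, and Mitf at -0.53 ± 0.052 (adjusted p = 3.78e-07) and Tfe3 at -0.32 ± 0.053 (adjusted p = 9.7e-05) on the other. Of the 15 V-ATPase genes 7 were higher with SQ1 and 0 lower, among them Atp6v0d1 at 0.4, Atp6ap2 at 0.26, Atp6v1e1 at 0.24 and Atp6v1a at 0.23. Of the 14 hydrolase genes 7 were higher and 0 lower. With the Agilent ratio the V-ATPase genes Atp6v1c1 (-0.14) and Atp6v1g1 (-0.1) and the hydrolase genes Gaa (-0.2) and Neu1 (-0.12) were called lower. After median centring the difference was called for 3 genes alone, Lipa, Ctsh and Mitf. The share of all genes called in the difference was then 24.6%. The difference of Gla was also lost with slide (adjusted p = 0.0698) or scan day (0.0587) as a block and without a dye column (0.0578). That of Tfeb was lost with slide as a block (0.108), that of Lamp1 without a dye column (0.0777) and that of Ctsa with the mean of its probes (0.0663). The fit above had no block. With the replicate number as a block, 20 genes were higher and 4 lower, where 64% of all genes were called. Atp6v1d, Atp6v1f and Gusb joined the higher ones (limma adjusted p = 0.0285, 0.0184 and 0.0168) and Atp6v1c1 and Gaa the lower ones (0.0377 and 0.0127). Leaving out 1 array also brought 3 of these past the threshold: Gaa without SQ1 replicate 3 or pravastatin replicate 1 or 2, Gusb without SQ1 replicate 6 or pravastatin replicate 3 or 7, and Atp6v1f without pravastatin replicate 4 (values from -0.13 to 0.16).

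For 17 genes the difference did not pass the threshold, and its 95% interval gives the sizes it leaves. Mcoln1 had an interval from -0.089 to 0.08, Glb1 from -0.076 to 0.11, and Atp6v1g1 from -0.11 to 0.052. Each of these genes rose with both drugs. The intervals hold for the main fit alone: with the Agilent ratio the difference of Atp6v1g1 was called (-0.1, limma adjusted p = 0.024). Ctsl had the widest interval among the 17, from -0.35 to 0.064. With scan day as a block Ctsl was called lower (-0.24, limma adjusted p = 0.0467), as were Gaa (-0.13) and Neu1 (-0.12).

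Taken by direction, 12 genes rose with both drugs and Ctsh fell with both, where 8.29% of all genes rose and 9.89% fell with both. Atp6v0d1, Atp6v1e1, Lamp2, Ctsa, Hexa and Psap, 6 genes, rose with SQ1 and fell with pravastatin, against 3.6% of all genes. Tfe3 and Mitf fell with SQ1 and rose with pravastatin, against 2.75% of all genes. In 10 genes every SQ1 array lay above every pravastatin array (12.4% of all genes), and in Tfe3 and Mitf every one lay below (8.32%). After median centring 0 of these 8 genes were called in opposite directions.

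**Figure D3:**
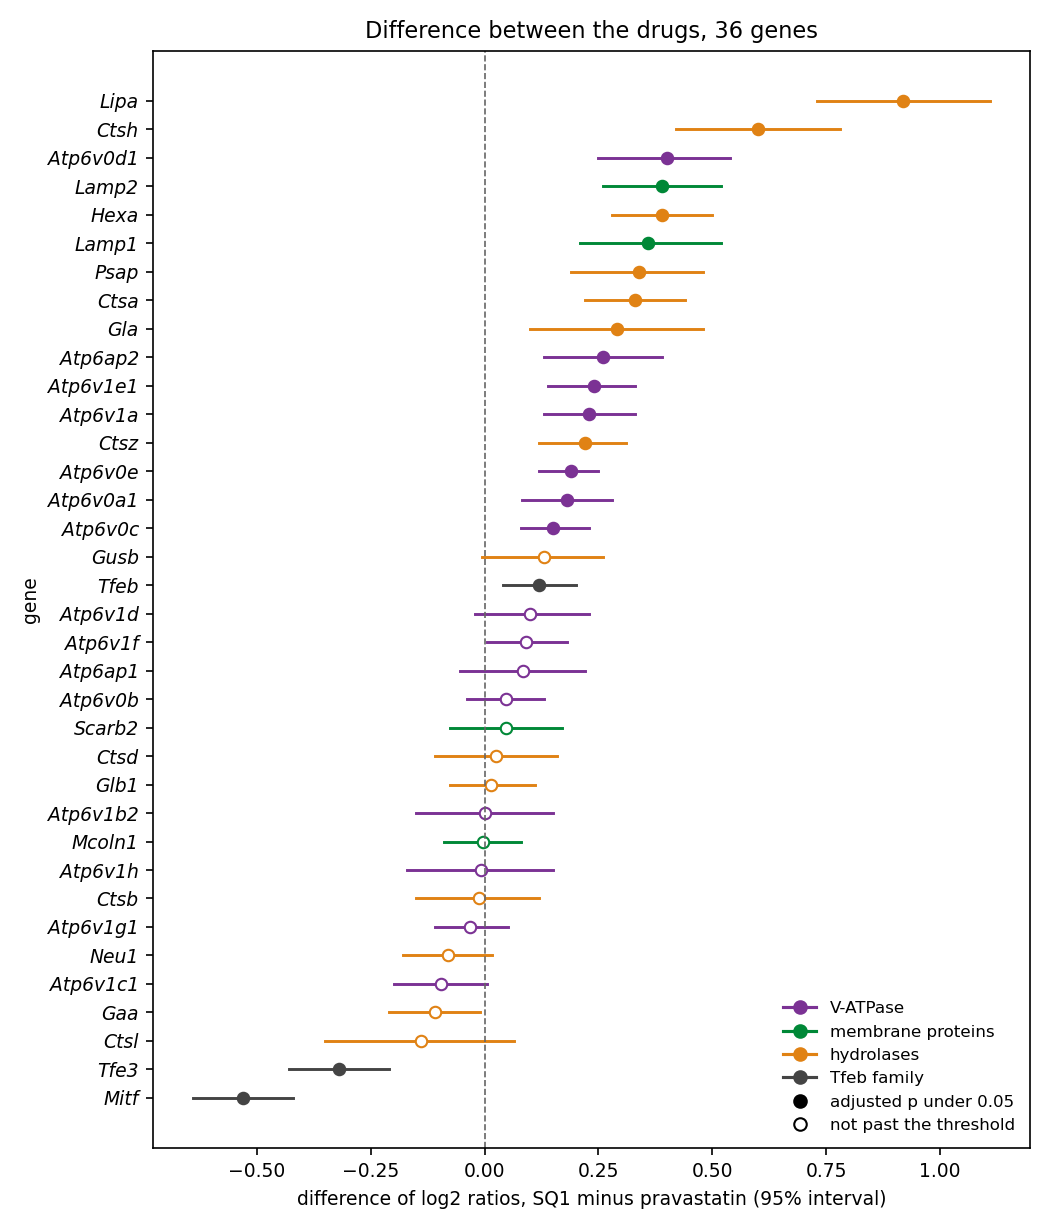
Difference of the log2 ratios, SQ1 minus pravastatin (horizontal axis), for the 36 genes (vertical axis, ordered by the difference). Points are fitted differences, lines 95% intervals, colours the groups of genes and filled points an adjusted p under 0.05; Lipa (0.92) and Ctsh (0.6) lie farthest to the right and Mitf (-0.53) farthest to the left, and these 3 alone were called after median centring.

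Each drug's arrays lay on a pair of slides, with replicates 1, 2, 5 and 6 on one and 3, 4, 7 and 8 on the other. Slide and these sets of replicates therefore cannot be told apart. The pravastatin slides were also scanned on different days, so for pravastatin scan day cannot be told apart from them either. Between the SQ1 slides 5 of the 36 genes differed (12.3% of all genes, 3.95% higher and 8.32% lower on slide 1), and between the pravastatin slides 9 did (21.8%, 6.7% higher and 15.1% lower on slide 3). In each of these genes the slide with replicates 3, 4, 7 and 8 gave the higher ratio. Ctsl stood at -0.19 on SQ1 slide 1 and 0.17 on slide 2 (limma adjusted p = 0.00183), and at -0.05 on pravastatin slide 3 and 0.32 on slide 4 (adjusted p = 4.9e-04). Ctsh stood at -0.33 and -0.079 with SQ1 and at -0.99 and -0.62 with pravastatin. Lamp1 stood at -0.0096 and 0.19 with SQ1 and at -0.42 and -0.13 with pravastatin. The values of Ctsb were -0.23 and 0.045 with SQ1, and -0.16 and -7.5e-04 with pravastatin. Tfe3 differed with SQ1, at -0.24 and -0.022. Atp6v0d1, Atp6v1a, Atp6v1b2, Atp6v1e1 and Gusb differed with pravastatin, and of these Atp6v0d1 went from -0.3 to -0.037 and Atp6v1b2 from 0.017 to 0.31. The V-ATPase median was 0.17 and 0.22 on the SQ1 slides and 0.017 and 0.12 on the pravastatin slides. The median of the pump was above 0 on every slide, but on slide 3 it was smaller than the SD over pravastatin array medians (0.074). On that slide 5 of its genes were higher and 3 lower.

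**Figure D4:**
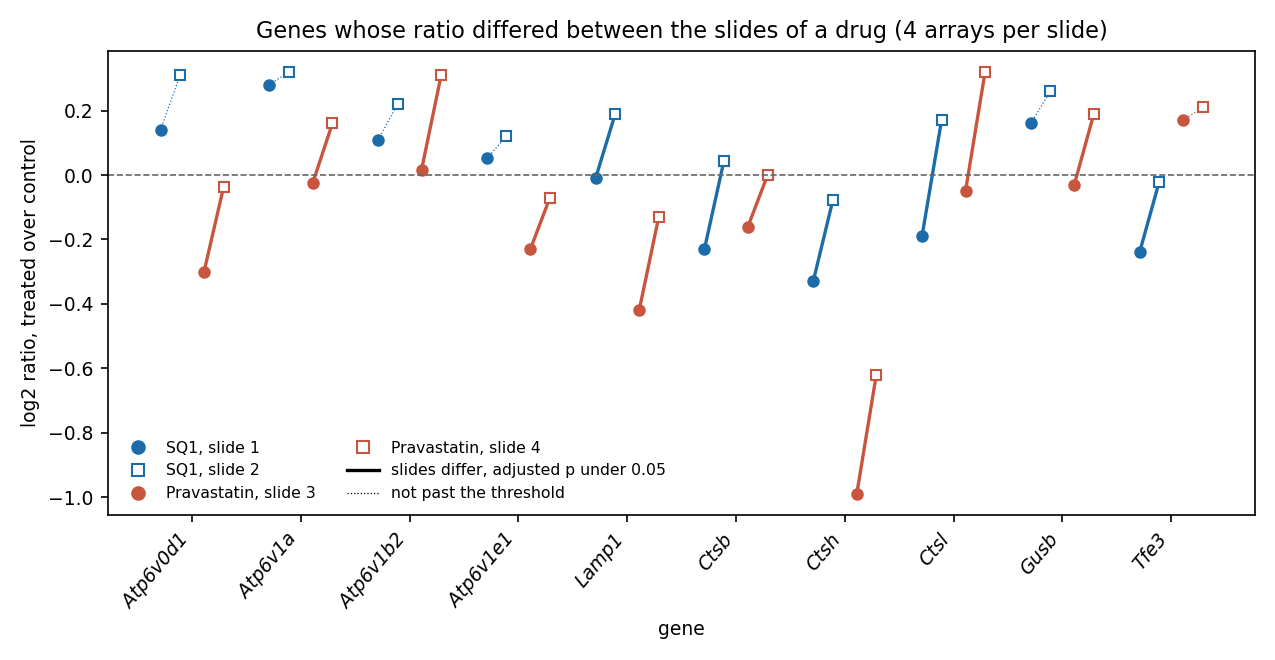
Log2 ratio of treated over control (vertical axis) on each slide for the 10 genes (horizontal axis) that differed between the slides of at least 1 drug. Filled circles are slides 1 and 3, open squares slides 2 and 4, blue SQ1 and red pravastatin, and solid lines mark an adjusted p under 0.05; each solid line rises from circle to square.

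The set was read beside 129 further genes of the lysosome, of which 122 were tested. With SQ1 41 rose, 8 fell and 73 did not pass, and with pravastatin 38 rose, 45 fell and 39 did not pass. Over all genes 15.8% rose and 16.5% fell with SQ1, and 30.9% and 35.8% with pravastatin, so that the pravastatin counts lie near the share of all genes. The medians were 0.076 and -0.006. Among the other V-ATPase subunits 5 of 10 were tested: 1 rose with SQ1 and 1 fell with pravastatin, and each was Atp6v0d2, an isoform of the d subunit found in osteoclasts and macrophages. Atp6v0d2 had SQ1 arrays from 0.16 through 0.46 to 0.63 and pravastatin arrays from -1.3 through -1.08 to -0.82, with a change of 0.42 ± 0.061 (limma adjusted p = 7.58e-05) and -1.07 ± 0.061 (adjusted p = 2.31e-10). Of 9 assembly factors 3 rose and 1 fell with SQ1, and 4 rose and 2 fell with pravastatin. The examples are Dmxl2 (0.27 and 0.34), Tmem199 (0.11 and 0.36) and Ccdc115 (-0.23 and -0.35).

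Of 10 other lysosomal proteases, 4 rose and 1 fell with SQ1 and 4 rose and 4 fell with pravastatin. The carboxypeptidase Scpep1 rose by 0.54 and 0.61, the dipeptidase Dpp7 by 0.34 and 0.13, and Ctsc, which activates serine proteases of immune cells, by 0.22 and 0.9. Of 20 other glycosidases, sulfatases and their helpers, 6 rose and 1 fell with SQ1 and 4 rose and 10 fell with pravastatin. Hyal1, a hyaluronidase, fell by 1.01 with pravastatin and stood at -0.047 with SQ1.

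Of 11 tested lipid, nucleic acid and phosphate hydrolases, 4 rose and 1 fell with SQ1 and 2 rose and 6 fell with pravastatin. Acid ceramidase Asah1 rose by 0.4 and 0.29, and the thioesterase Ppt1 rose by 0.24 with SQ1. Gm2a, the activator that serves hexosaminidase, fell by 0.87 with pravastatin, and the acid phosphatase Acp5 by 0.41. Of 18 other membrane proteins and transporters, 9 rose and 1 fell with SQ1 and 9 rose and 5 fell with pravastatin. Npc2, which carries cholesterol in the lumen, rose by 0.41 and 0.34. Lmbrd1, of cobalamin export, changed by -0.38 and -0.84, and the ion channel Tmem175 by -0.44 with pravastatin.

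Of 10 genes that deliver hydrolases, 6 rose and 0 fell with SQ1 and 4 rose and 3 fell with pravastatin. The sorting adaptor Gga2 rose by 0.37 and 0.29. Nagpa, which uncovers the mannose 6-phosphate tag, rose by 0.2 with SQ1, and the subunits of the phosphotransferase that adds it parted with pravastatin, Gnptab at 0.32 and Gnptg at -0.35. Of 17 tested genes of mTORC1 at the lysosome, 3 rose and 1 fell with SQ1 and 7 rose and 4 fell with pravastatin. The GTPases Rragd and Rragc rose by 0.36 and 0.26 with SQ1. Tsc1, an inhibitor of the complex, rose by 0.4 and Mlst8, a subunit of it, fell by 0.33 with pravastatin.

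Of 22 autophagy genes, 5 rose and 2 fell with SQ1 and 4 rose and 10 fell with pravastatin. Over all genes 32.3% were called with SQ1 and 66.7% with pravastatin, shares that neither the autophagy nor the mTORC1 list exceeded. Atg7, an activating enzyme of the conjugation system, rose by 0.22 with SQ1 and fell by 0.44 with pravastatin. The kinase Ulk1 changed by -0.28 and -0.7. Sqstm1, the cargo receptor p62, rose by 0.51 with pravastatin and stood at 0.029 with SQ1.

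Markers of cell types were read beside all genes, of which 15.8% rose and 16.5% fell with SQ1, and 30.9% and 35.8% with pravastatin. In RNA of a whole culture fewer cells of a type and less RNA per cell cannot be told apart. All 10 hepatocyte markers were well above background in every control channel. With SQ1 0 rose and 6 fell, at a median of -0.27 and array medians from -0.58 to -0.0029. With pravastatin 0 rose and 10 fell, at a median of -1.56 and array medians from -1.92 to -1.19. Of 15 Kupffer cell and leukocyte markers 14 were tested, and 13 were above background in every control channel. With SQ1 1 rose and 5 fell (median -0.11, array medians from -0.25 to -0.021), and with pravastatin 1 rose and 9 fell (median -0.38, array medians from -0.64 to -0.28). Of 10 endothelial markers 5 rose and 0 fell with SQ1 (median 0.15) and 4 rose and 4 fell with pravastatin (median 0.032). Of 11 stellate cell and fibroblast markers 2 rose and 1 fell with SQ1 (median -0.025), and 0 rose and 4 fell with pravastatin (median -0.1). The share called in this list did not exceed that of all genes with either drug (32.3% and 66.7%). Of 8 cholangiocyte markers 1 rose and 3 fell with SQ1 (median -0.071), and 2 rose and 4 fell with pravastatin (median -0.22). The part of these cell types in the changes of the lysosomal genes was not tested.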

How the data were processed

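The authors deposited unnormalized median intensity values per spot and background from Agilent Feature Extraction 11.0.1.1 (per the file headers), a log10 ratio of processed signals (per the file headers), and a series table on the log2 scale, here found to follow that ratio turned to treated over control (correlation 0.742 to 0.999 per array, lowest for SQ1 replicates 5 and 2). Background correction by normexp (offset 50) and loess within arrays used limma 3.58.1 in R 4.3.3; control spots had no weight, and spots of a probe were averaged. Of 39429 probes 27234 were named through RefSeq accessions (GRCm38.p6) and 12195 were not. A gene was represented by its brightest probe. It was tested if well above background on at least 4 treated channels of a drug or 8 control channels, and if at least 7 arrays per drug gave a ratio. Spots flagged as non-uniform or as population outliers in either channel were left out.

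One limma fit over 16 arrays gave each drug a coefficient signed by dye, with a dye column (13 residual degrees of freedom); tests were two-sided. Treated RNA was in A647 for replicates 1 to 4 and in A555 for 5 to 8. The median SE was 0.04 (each drug) and 0.056 (difference); precision is limited by the number of arrays. The series calls the replicates biological; whether they came from separate animals is not given in the sources used here. The script was tested on simulated data.

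Arrays with the same replicate number deviated together across the drugs (correlation 0.22 to 0.72 for all 8 numbers). Even so, 5 of the 8 correlated more with another number of the same set of slides (0.34 to 0.76). The main fit had no block and did not pair the arrays, and replicate number as a block was run as an alternative. With replicate number, slide or scan day as a random block the correlation was 0.47, 0.27 and 0.23. Alternatives covered background, normalization, starting values, dim probes, probes per gene, dye column, blocks, array weights, arrays left out, drugs fitted apart and a stricter threshold. The 36 genes, the further lists and the tests were chosen with earlier results of these data known. Full values were given for the 3 largest called changes of each group and for genes called in opposite directions, and from each further list values for the 2 largest per drug, save some genes that are not reported here.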

Additional observations from a re-analysis of the deposited data

Results flagged for a closer look

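In 6 of the 72 sets of 8 arrays (a gene with a drug), 1 array stood apart from the others by more than Dixon's criterion allows, which chance gives in about 5% of such sets. Psap with SQ1 was 0.58 on replicate 2, where the nearest other array was 0.2. Hexa with SQ1 was 0.33 on replicate 7 (nearest 0.21), and Atp6v1g1 with SQ1 was 0.13 on the same array (nearest 0.2). With pravastatin, Atp6v0e was -0.091 on replicate 7 (nearest -0.02), Glb1 was -0.052 on replicate 8 (nearest 0.12) and Tfe3 was 0.1 on replicate 2 (nearest 0.18).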

How the results depend on the processing

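With median centring of the arrays in place of loess, 18 genes were higher and 0 lower with SQ1, the V-ATPase median was 0.34 and the hydrolase median 0.25. With pravastatin 3 genes were lower and these medians were 0.23 and 0.17. In the difference 2 genes were higher and 1 lower. Over all genes median centring called 13.8% with SQ1, 47.7% with pravastatin and 24.6% in the difference. After loess these shares were 32.3%, 66.7% and 53.2%. It turned the pravastatin values of Atp6v1e1 (0.0087), Atp6v1f (0.048), Lamp2 (0.059) and Psap (0.012). It moved the median of all genes to 0.067 and 0.042, and the share of calls that were higher from 48.8% to 71.2% with SQ1 and from 46.3% to 61% with pravastatin. With the Agilent ratio that share was 56.8% with pravastatin and 44.7% in the difference (55.1% after loess). With that ratio or the series table, the pravastatin V-ATPase median was 0.18 and 6 genes were lower in the difference. The Agilent ratio also called Atp6v0c (0.08), Atp6v1a (0.16), Atp6v1h (0.18), Atp6ap2 (0.1), Ctsz (0.1) and Gusb (0.16) higher and Ctsb (-0.11) lower with pravastatin. With the mean of a gene's probes Ctsa with SQ1 was -0.094.

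With the replicate number as a block 4 genes were lower in the difference, and this block changed no call of either drug against control. With scan day as a block 14 genes were higher with SQ1, the SQ1 V-ATPase median was 0.17 and 5 genes were lower in the difference. Over all genes that block called 14.9% with SQ1, 55.2% with pravastatin and 47.7% in the difference. Slide as a block called 16.9%, 54.9% and 38%. At an adjusted p of 0.01 the SQ1 count of lower genes was 1, as it was without SQ1 replicates 2 and 5, an alternative chosen after seeing the data. The cause was not tested, save that a stricter threshold calls fewer genes.

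Leaving out each array in turn gave 21 to 24 genes higher and 3 to 4 lower with SQ1, 14 to 18 and 12 with pravastatin, and 17 to 18 and 2 to 3 in the difference. The V-ATPase medians ran from 0.19 to 0.21 with SQ1 and from 0.066 to 0.13 with pravastatin, and the hydrolase medians from 0.12 to 0.14 and from -0.05 to -0.016. The SQ1 call of Atp6v1b2 was lost without SQ1 replicate 8, and the pravastatin call of Atp6v1d without pravastatin replicate 3, 4, 6 or 7. Of the 24 rises with SQ1, 13 were called in each of the 32 alternatives, as were 13 of the 15 rises and 3 of the 12 falls with pravastatin, and 0 of the 3 falls with SQ1 (Ctsh, Tfe3 and Mitf). In the difference 2 of 17 higher and 1 of 2 lower calls held in each of 31.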
